A study of Mus musculus with 8 samples.

Results

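The cytosolic ribosomal protein genes were taken from the liver count table by symbol. They are genes named *Rpl* or *Rps* with a number and at most one of the letters a, x, l, y or k, together with *Rplp0*, *Rplp1*, *Rplp2*, *Rpsa*, *Rpl7l1* and *Rps27l*. The *Rps6k* kinases were left out. This gave 81 of the 16540 genes of the table, 50 for the large subunit and 31 for the small subunit. Liver RNA came from 8 male mice, all labelled *Apoe*-/-, a genotype that raises plasma cholesterol, and all on a cholesterol-rich diet that the labels call a Western diet. Of these, 4 received vehicle (DMSO) and 4 received isoginkgetin (ISOGK), a biflavonoid of *Ginkgo* that the study examined as an inhibitor of ATP-citrate lyase, at 20 mg/kg per day by intraperitoneal injection for 8 weeks. The age of the mice is not given in the sources used here. Each mouse gave 1 library, with 19605286 to 24461854 counted reads per vehicle-treated mouse and 17457106 to 21626399 per ISOGK-treated mouse.

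Ribosomal proteins bind ribosomal RNA to form a small subunit, which reads the mRNA, and a large subunit, which joins amino acids into protein. One copy of nearly every protein is needed per ribosome, so the cell makes them in matched amounts. Most of their mRNAs begin with a 5′ terminal oligopyrimidine (TOP) tract, a C followed by an unbroken run of C and T, through which LARP1 and the kinase mTORC1 set their translation. The liver is a major maker of secreted proteins, and its hepatocytes are rich in ribosomes.

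Of the 81 genes, 61 matched a RefSeq promoter of 300 bases by symbol (GRCm38.p6, the first start listed for each gene). A TOP-like tract, here a C followed by at least 5 pyrimidines on the sense strand from 20 bases before to 30 bases after the start, was found in 43 of the 61 (70.5%). The same search found one in 34.3% of 27025 mouse promoters and in 34.0% of the 9814 promoters of tested genes. The tract was present in 25 of 38 large subunit and 18 of 23 small subunit promoters. The following windows run 15 bases either side of the start, 5′ to 3′, with tracts in capitals. *Rps18*, a small subunit gene that passed the test below, *Rps6*, which encodes the substrate of S6 kinase, *Rplp2* of the stalk and *Fau* and *Rack1*, ribosome components outside the symbol rule, show a tract. *Rpl22*, the gene with the smallest change, shows none, and its paralog *Rpl22l1* shows one.
Rps18 (chr17:33955651-33955680, minus strand): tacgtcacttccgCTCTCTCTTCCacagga
Rps6 (chr4:86857353-86857382, minus strand): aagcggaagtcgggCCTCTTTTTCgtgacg
Rplp2 (chr7:141447636-141447665, plus strand): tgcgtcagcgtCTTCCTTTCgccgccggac
Fau (chr19:6057932-6057961, plus strand): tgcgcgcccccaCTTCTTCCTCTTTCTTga
Rack1 (chr11:48800345-48800374, plus strand): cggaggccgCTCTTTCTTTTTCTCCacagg
Rpl22 (chr4:152325711-152325740, plus strand): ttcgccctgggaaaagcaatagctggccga
Rpl22l1 (chr3:28805493-28805522, plus strand): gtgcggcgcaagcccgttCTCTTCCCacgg

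The letters CCGGAA, the core that ETS factors bind, occurred on either strand in 31 of the 61 promoters (50.8%), against 15.2% of all promoters and 28.0% of those of tested genes. AAGATGG, the core of the YY1 motif, occurred in 9 (14.8%), against 6.48% and 7.28%. GGGCGG, the core of the SP1 box, occurred in 36 (59.0%), against 35.9% and 63.4%. CCAAT occurred in 19 (31.1%), against 37.9% and 38.8%, and TATAAA in 5 (8.20%), against 14.2% and 7.41%. The tract and these letters were searched separately and may overlap. The median log2 fold change with ISOGK was taken over the tested members with a promoter. It was 0.30 for the 42 with a tract and 0.33 for the 16 without. The search used 1 start per gene and found a tract in 34% of promoters of tested genes. This split therefore cannot show whether TOP mRNAs differed from others. The median was 0.32 for the 30 with CCGGAA and 0.30 for the 28 without.

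All but 3 of the 81 genes passed the filter on low counts. The exceptions were *Rpl3l*, *Rpl10l* and *Rpl39l*, paralogs with restricted expression that had no more than 9 counts in any library, so 78 genes were tested, 47 of the large and 31 of the small subunit. Levels are given as CPM (counts relative to library size, in the usual unit of counts-per-million) scaled by TMM, a method that brings the bulk of genes to a common level. On this scale all 78 genes had a log2 fold change above 0 with ISOGK (75 when scaled by library size alone), but unevenly among the mice. ISOGK mouse 4 had the highest level of all 8 mice for 77 of the 78 genes, and *Rpl3* was highest in ISOGK mouse 2. Against the 4 vehicle-treated mice, 72 genes lay above all of them in ISOGK mouse 1, 69 in mouse 2 and 78 in mouse 4. In ISOGK mouse 3 only 29 genes did, while 12 lay below all vehicle-treated mice and the other genes in between. Vehicle mouse 1 had the lowest level for 43 genes. In bulk liver RNA, fewer cells of a type and less RNA per cell cannot be told apart.

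**Figure D1:**
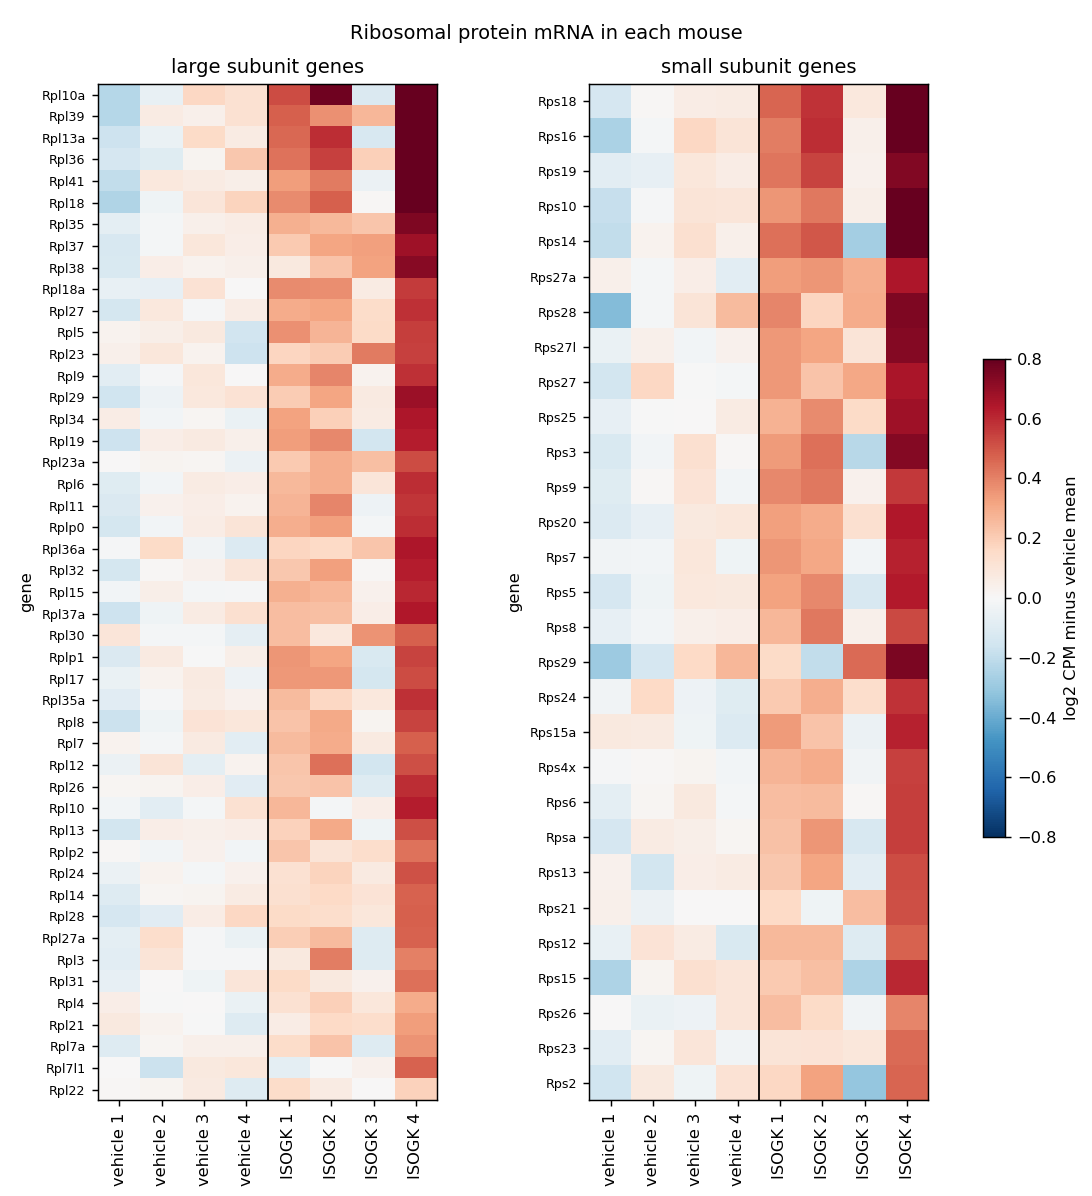
Log2 CPM of each tested ribosomal protein gene (rows, genes of the large subunit left and of the small subunit right, ordered by fold change; some genes not shown) in each mouse (columns), minus the mean of the 4 vehicle-treated mice, with colours ending at 0.8. ISOGK mouse 4 is highest in every row but that of *Rpl3*, and ISOGK mouse 3 resembles the vehicle-treated mice in many rows but not in all.

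With edgeR's quasi-likelihood test and Benjamini-Hochberg adjustment over all 12307 genes tested, 4 members were called higher (adjusted p under 0.05) and 0 lower. The 4 are 5.13% of the 78, while 4.11% of all genes tested were called higher and 3.44% lower, so the share of calls was close to the background in this test. At an unadjusted p under 0.05, 54 members were higher and 0 lower in edgeR, 69.2% of the 78 against 12.5% of all genes that were higher at that level. In DESeq2's Wald test 21 members were called higher (26.9%, against 6.22% of all genes) and in limma-voom 3 (3.85%, against 3.75%), with 0 lower in both. Every ISOGK-treated mouse lay above every vehicle-treated mouse for 24 of 78 members (30.8%), against 7.92% of all genes tested. The members varied together from mouse to mouse, so these counts do not rest on independent genes. Without ISOGK mouse 3 edgeR called 43 members higher (55.1%, against 5.72% of all genes). Without vehicle mouse 1, 2 or 3 it called 0, against 2.29%, 1.76% and 2.17% of all genes, with 34, 37 and 46 members at an unadjusted p under 0.05. For these fits the share of all genes at that unadjusted level is not given here.

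The gene with the smallest adjusted p was *Rps27a*, which encodes a small subunit protein made as a fusion with ubiquitin. Its level was 98.7, 94.9, 99.3 and 90.5 CPM in vehicle mice 1 to 4 and 120.6, 122, 117 and 150.1 CPM in ISOGK mice 1 to 4. All ISOGK-treated mice stood above all vehicle-treated mice, and mouse 4 stood apart from the other ISOGK-treated mice. The mean rose from 95.8 ± 4.04 to 128 ± 15.2 CPM (mean ± SD of 4 mice). This is a rise of 0.41 in log2 terms (standard error, SE, 0.10, adjusted p = 0.0275 in edgeR).

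*Rps18*, whose protein sits in the head of the small subunit, had 117, 129, 134 and 134 CPM with vehicle and 177, 191, 136 and 228 CPM with ISOGK. ISOGK mouse 3 barely exceeded the highest vehicle-treated mouse, so the separation of the groups rests on a narrow gap. The log2 fold change of *Rps18* was 0.51 (SE 0.14, adjusted p = 0.0423 in edgeR).

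The large subunit gene *Rpl36* had 18.01, 18.5, 20.1 and 22.9 CPM with vehicle and 26.7, 28.9, 22.6 and 34.4 CPM with ISOGK. ISOGK mouse 3 fell just below vehicle mouse 4, so the groups overlapped. Its log2 fold change was 0.50 (SE 0.13, adjusted p = 0.0401 in edgeR). *Rpl37*, a zinc-binding protein of the large subunit, had an edgeR adjusted p that rounds to 0.05 from above and a log2 fold change of 0.39, and it was called with DESeq2's size factors, with upper quartile factors, with TMM factors computed without the members and with a stricter count filter. All 4 calls were lost with library size as the only scaling, and 1 of the 4 was kept with an adjustment for transcript length and GC content. With mice of the same number treated as a block, 1 of the 4 (*Rpl36*) was kept, and *Rps27a* and *Rps18* lost their calls. Without ISOGK mouse 4, 1 of the 4 (*Rps27a*) was kept, and without vehicle mouse 1, 2 or 3 none was. The adjusted p over all alternatives ranged from 0.00205 to 0.0889 for *Rps27a*, from 0.0064 to 0.118 for *Rps18* and from 0.0111 to 0.124 for *Rpl36*.

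**Figure D2:**
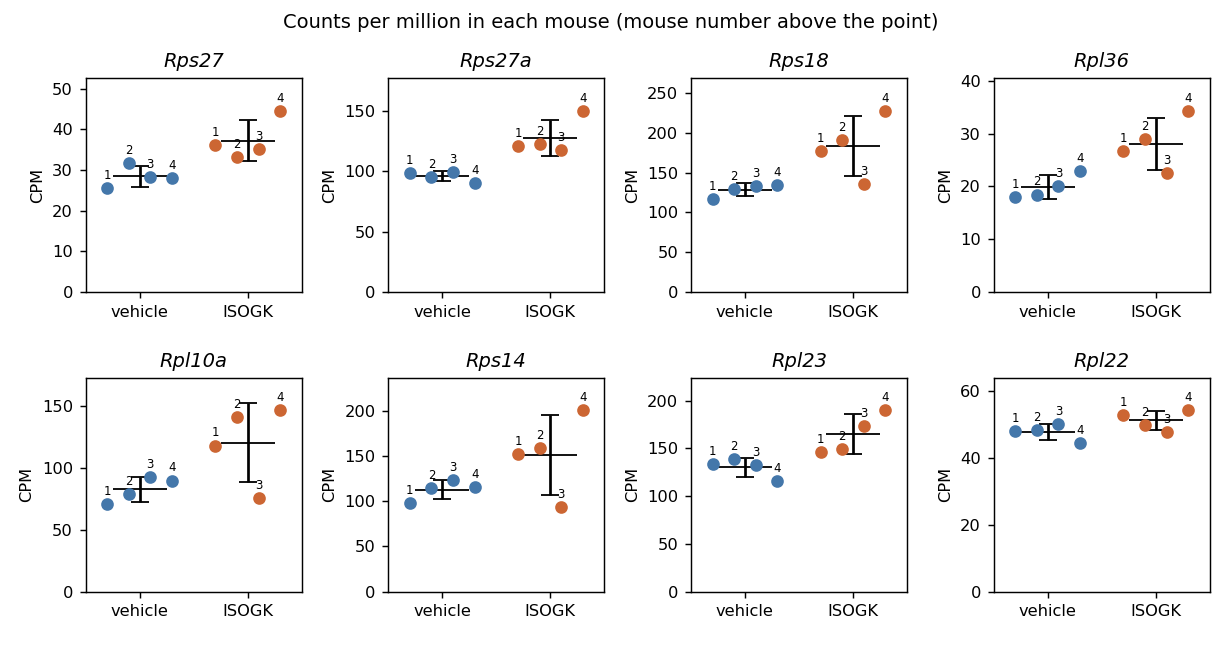
CPM of 8 ribosomal protein genes in each mouse (points, mouse number above; blue vehicle, orange ISOGK), with the group mean and SD as bars. *Rps27* and *Rps27a* separate the groups in all 4 mice, whereas for *Rpl10a* and *Rps14* ISOGK mouse 3 lies among or below the vehicle-treated mice.

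The largest fold change was that of *Rpl10a*, a large subunit protein near the exit site of tRNA. It had 70.3, 78.8, 92.1 and 89.6 CPM with vehicle and 118, 141, 75.8 and 146 CPM with ISOGK. ISOGK mouse 3 lay within the vehicle group, and the log2 fold change of 0.54 (SE 0.18) had an edgeR adjusted p of 0.106. *Rpl13a*, which besides its place in the ribosome has been tied to silencing of inflammatory mRNAs, showed the same arrangement. Its levels were 161, 174, 201 and 190 CPM with vehicle and 249, 273, 166 and 346 CPM with ISOGK, a log2 fold change of 0.51 (SE 0.18, adjusted p = 0.12 in edgeR). *Rpl39*, a small protein lining the exit tunnel of the nascent chain, was a low-count gene with 8.53, 10.5, 10.3 and 10.9 CPM against 13.9, 12.9, 12.0 and 18.7 CPM. Its groups did not overlap, with a log2 fold change of 0.52 (SE 0.15, adjusted p = 0.0569 in edgeR). *Rps16*, at 42.6, 50.1, 56.8 and 54.4 CPM against 67.3, 76.3, 52.2 and 94.1 CPM, had a log2 fold change of 0.51 (adjusted p = 0.0805 in edgeR). In each of these genes but *Rpl39*, ISOGK mouse 3 lay inside the range of the vehicle group. Without that mouse edgeR called all of them higher. DESeq2's Wald test called *Rpl10a*, *Rpl39* and *Rps16* higher. Without both smallest libraries edgeR called *Rpl10a*, *Rpl13a* and *Rps16* higher.

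Among the smallest differences were those of *Rpl22*, *Rpl7l1*, *Rpl7a* and *Rpl21*. *Rpl22*, whose protein is dispensable for translation in most tissues, had 48.2, 48.5, 50.2 and 44.4 CPM with vehicle and 52.9, 49.9, 47.8 and 54.3 CPM with ISOGK. The groups overlapped, with a log2 fold change of 0.10 (SE 0.08, adjusted p = 0.509 in edgeR). *Rpl7l1*, a nucleolar paralog of *Rpl7* that acts in ribosome assembly, had 56.6, 50.1, 59.4 and 60.2 CPM against 53.4, 56.3, 57.8 and 78.1 CPM, so that only ISOGK mouse 4 lay outside the vehicle range. *Rpl7a* and *Rpl21* both had a log2 fold change of 0.17. With library size as the only scaling, the log2 fold changes of *Rpl22* and *Rpl7l1* changed sign, to -0.033 and -0.022, and that of *Rpl7l1* did so too without ISOGK mouse 4, to -0.019. With the adjustment for transcript length and GC content, that of *Rpl22* was -0.069.

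The paralog of *Rpl22*, *Rpl22l1*, lies outside the symbol rule and is known to be repressed by the RPL22 protein. Its level was 4.72, 5.58, 4.67 and 5.27 CPM with vehicle and 7.46, 8.66, 6.90 and 7.44 CPM with ISOGK, without overlap. In the reported edgeR fit it was the one call among 7 tested ribosomal genes outside the rule (14.3%, against 4.11% of all genes), whose median was 0.32. The log2 fold change of *Rpl22l1* was 0.59 (SE 0.13, adjusted p = 0.0223 in edgeR), and ISOGK mouse 4 did not stand out in it. Its call was lost in 5 of 19 alternatives, among them library size alone (log2 fold change 0.46), and its adjusted p ranged from 0.00394 to 0.0712 over the alternatives. It rests on 94 to 164 counts per library.

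Levels between genes were compared per kilobase of coding sequence, in the vehicle group. The median was 200.3 CPM per kb for the 47 large subunit genes and 203 for the 31 small subunit genes. Reads of untranslated ends count too, which can raise a gene with a very short coding sequence on this scale. *Rpl41*, which encodes the shortest ribosomal protein from 75 coding bases, had 930 CPM per kb. Below it came *Rps2* with 492, *Rpsa*, known also as a precursor of the laminin receptor, with 356, *Rps6* with 356 and *Rplp0* with 355. The lowest of the tested genes were *Rps28* with 53.9, *Rpl36* with 63.1 and *Rpl39* with 65.7 CPM per kb. Their coding sequences, of 207, 315 and 153 bases, are short too, so short genes did not stand high throughout. Untranslated ends and reads with several matches may account for part of these differences, which was not tested.

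None of the genes with the most counts was called in the reported edgeR fit. *Rps2* had 386, 456, 421 and 468 CPM with vehicle and 484, 539, 348 and 595 CPM with ISOGK, with ISOGK mouse 3 below all vehicle-treated mice and a log2 fold change of 0.18 (adjusted p = 0.486 in edgeR). *Rpl4* had 384, 370.2, 371 and 357 CPM against 403, 424, 394 and 455 CPM, without overlap but with a small log2 fold change of 0.18 (adjusted p = 0.244 in edgeR). *Rps6* had 252, 268, 281 and 263 CPM against 316, 317, 268 and 391 CPM, and ISOGK mouse 3 was inside the vehicle range. *Rps4x*, the X-linked form of its protein, *Rpl7* and *Rpl7a* had log2 fold changes of 0.29, 0.28 and 0.17, none of them called in that fit. Without ISOGK mouse 3 edgeR called *Rps4x* and *Rpl7* higher.

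The stalk of the large subunit, which recruits the elongation factors, is built from the products of *Rplp0*, *Rplp1* and *Rplp2*. *Rplp0*, a common reference gene in quantitative PCR, had 306, 331, 351 and 362 CPM with vehicle and 412, 423, 333 and 508 CPM with ISOGK. *Rplp1* had 67.6, 77.1, 73.0 and 75.8 CPM against 93.4, 91.1, 67.5 and 107 CPM. *Rplp2* had 34.3, 33.5, 34.8 and 33.6 CPM against 39.7, 36.6, 37.5 and 46.0 CPM. Only *Rplp2* separated the groups, since ISOGK mouse 3 was inside the vehicle range for *Rplp0* and below it for *Rplp1*. The log2 fold changes were 0.31, 0.29 and 0.23, with edgeR adjusted p-values of 0.147, 0.182 and 0.15. *Rpsa* of the small subunit, at 315 ± 19.2 against 381 ± 72.6 CPM (mean ± SD of 4 mice), had a log2 fold change of 0.27. *Rpl41*, at 69.7 ± 6.06 against 97.8 ± 32.2 CPM, had one of 0.49. Neither was called in the reported edgeR fit. Both were called without ISOGK mouse 3, as were *Rplp0* and *Rplp1* but not *Rplp2*.

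Among paralogs, *Rps27l*, which the protein encoded by *Trp53* can induce, was measured beside *Rps27*. *Rps27l* had 31.9, 34.0, 32.5 and 33.9 CPM with vehicle and 42.1, 41.2, 35.5 and 54.9 CPM with ISOGK. *Rps27* had 25.5, 31.8, 28.3 and 28.0 CPM against 36.1, 33.2, 35.1 and 44.6 CPM. Both separated the groups, with log2 fold changes of 0.39 each and edgeR adjusted p-values of 0.0708 and 0.0537. DESeq2's Wald test called both higher. In edgeR, *Rps27l* was called without ISOGK mouse 3 and *Rps27* with upper quartile factors. *Rpl3l*, the form found in heart and skeletal muscle, had 9 counts in vehicle mouse 4 and 0 in the other libraries, while *Rpl3* had 217 ± 12 and 252 ± 43.2 CPM. *Rpl10l* and *Rpl39l*, forms of testis and germ cells, stayed at or under 5 counts per library, beside 183 ± 11 and 218 ± 46.2 CPM for *Rpl10*. *Rps4l* was not analysed here.

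Ribosomal protein genes have many processed pseudogenes, and how reads with several matches were counted is not given in the sources used here. The row of the pseudogene *Rpl10-ps3* held 3556 to 6859 counts per library, 237 ± 22 CPM with vehicle, more than *Rpl10* itself. Levels of single members are uncertain to that extent. *Rps3a1*, at 211 ± 9.36 against 263 ± 34.1 CPM, *Fau*, at 72.8 ± 5.86 against 91.5 ± 13.7 CPM, and *Rack1*, at 202 ± 13.7 against 261 ± 47.8 CPM, encode ribosome components that the rule does not name. Their log2 fold changes of 0.32, 0.33 and 0.37 were in the range of the members, and none was called in the reported edgeR fit. DESeq2's Wald test called *Rps3a1* higher. Without ISOGK mouse 3 edgeR called *Rps3a1*, *Fau* and *Rack1* higher, and it called *Rack1* without both smallest libraries too.

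The large and small subunit genes moved together in each mouse. Relative to the median of all tested genes, the median deviation of the large subunit genes from the vehicle mean was -0.08, 0.01, 0.04 and 0.03 (log2) in vehicle mice 1 to 4. In ISOGK mice 1 to 4 it was 0.25, 0.30, 0.05 and 0.55. The small subunit genes had -0.08, -0.01, 0.06 and 0.02 in the vehicle group and 0.32, 0.31, 0.04 and 0.60 in the ISOGK group. ISOGK mouse 4 was highest for both subunits. ISOGK mouse 3 was inside the vehicle range for the small subunit and just above it for the large subunit. The median log2 fold change was 0.31 for large subunit genes (range 0.10 to 0.54), 0.33 for small subunit genes (0.14 to 0.51) and 0.31 for all 78, against 0.00176 for all genes tested.

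The large subunit median was thus lower than the small subunit median by 0.02 (log2). Within a mouse, where the scaling factor cancels, the mean log2 CPM of large minus small subunit genes was 0.21, 0.20, 0.18 and 0.18 with vehicle and 0.15, 0.17, 0.22 and 0.15 with ISOGK. The groups overlapped, at 0.19 ± 0.02 and 0.17 ± 0.03 (mean ± SD of 4 mice), and the difference of -0.02 was within the spread between mice. ISOGK mouse 3 had the largest value of all 8. Of the large subunit genes 17 of 47 (36.2%) had groups that did not overlap, and of the small subunit genes 7 of 31 (22.6%), against 7.92% of all genes tested. The test called 1 large (2.13%) and 3 small (9.68%) subunit genes higher, against 4.11% of all genes. Leaving out each mouse in turn gave a large minus small median between -0.05 and -0.01.

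**Figure D3:**
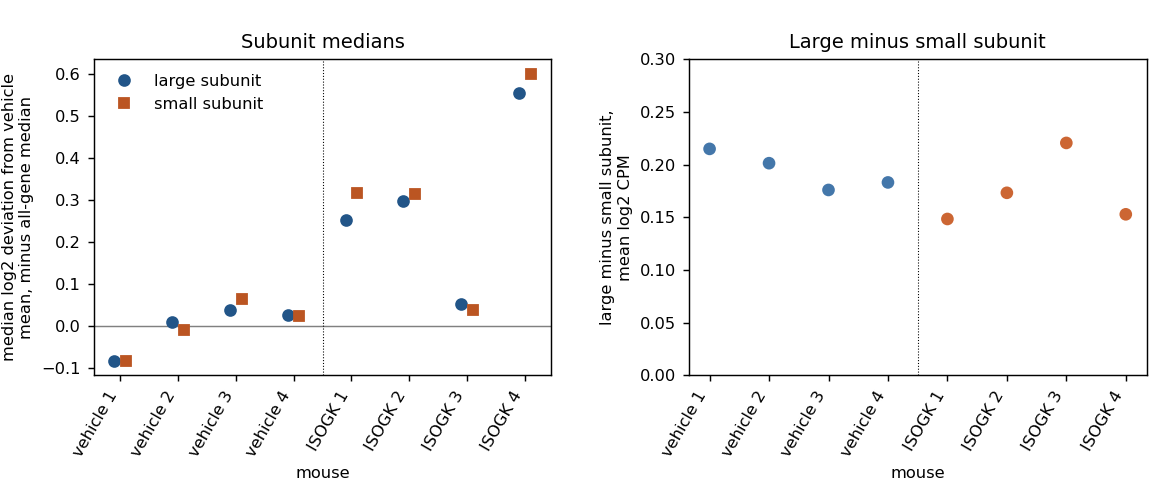
Left, the median log2 deviation of large (circles) and small (squares) subunit genes from the vehicle mean in each mouse, after subtracting the median over all tested genes. Right, mean log2 CPM of large minus small subunit genes in each mouse (blue vehicle, orange ISOGK). The subunits lie close together in every mouse, and the differences at right, 0.15 to 0.22, overlap between the groups.

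Whether the result depends on scaling was examined first without any scaling factor. The members took 0.860%, 0.932%, 1.00% and 0.949% of all counts in vehicle mice 1 to 4 and 1.03%, 1.06%, 0.911% and 1.17% in ISOGK mice 1 to 4. The groups overlapped because of ISOGK mouse 3, and the means were 0.936 ± 0.059% and 1.04 ± 0.105% (mean ± SD of 4 mice), a ratio of 1.11. With the 50 most abundant genes left out, the shares were 1.72 ± 0.0877% and 1.99 ± 0.245%, a ratio of 1.16. Those 50 genes took 44.6% to 46.3% of the counts with vehicle and 46.3% to 49.6% with ISOGK, the most in ISOGK mouse 4. TMM factors were 1.02, 1.03, 1.09 and 1.05 with vehicle and 0.97, 0.96, 1.01 and 0.883 with ISOGK, so that TMM raised ISOGK mouse 4 the most.

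Scaled by library size alone, the median of all genes fell by 0.13 (log2). The median of the members was then 0.17, with 75 of 78 above 0 and 0 called (against 2.13% of all genes). In edgeR 15 members had an unadjusted p under 0.05, and the share of all genes at that level is not given here. Relative to the median of all genes the members stood at 0.30, against 0.31 with TMM. Of all genes called, 54.5% were higher with TMM (506 higher, 423 lower) and 24.6% with library size alone (262 higher, 804 lower). With DESeq2's size factors, upper quartile factors or TMM factors computed without the members, the median was 0.31 to 0.32 and all 78 genes stood above 0. These gave 5, 6 and 5 calls (6.41%, 7.69% and 6.41%, against 4.01%, 4.24% and 4.2% of all genes). A scaling factor moves all genes of a library alike, so the near constancy of this relative value follows from its construction, whereas the number called changed. Without ISOGK mouse 4 the median was 0.20, with 1 call (1.28%, against 3.15% of all genes).

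**Figure D4:**
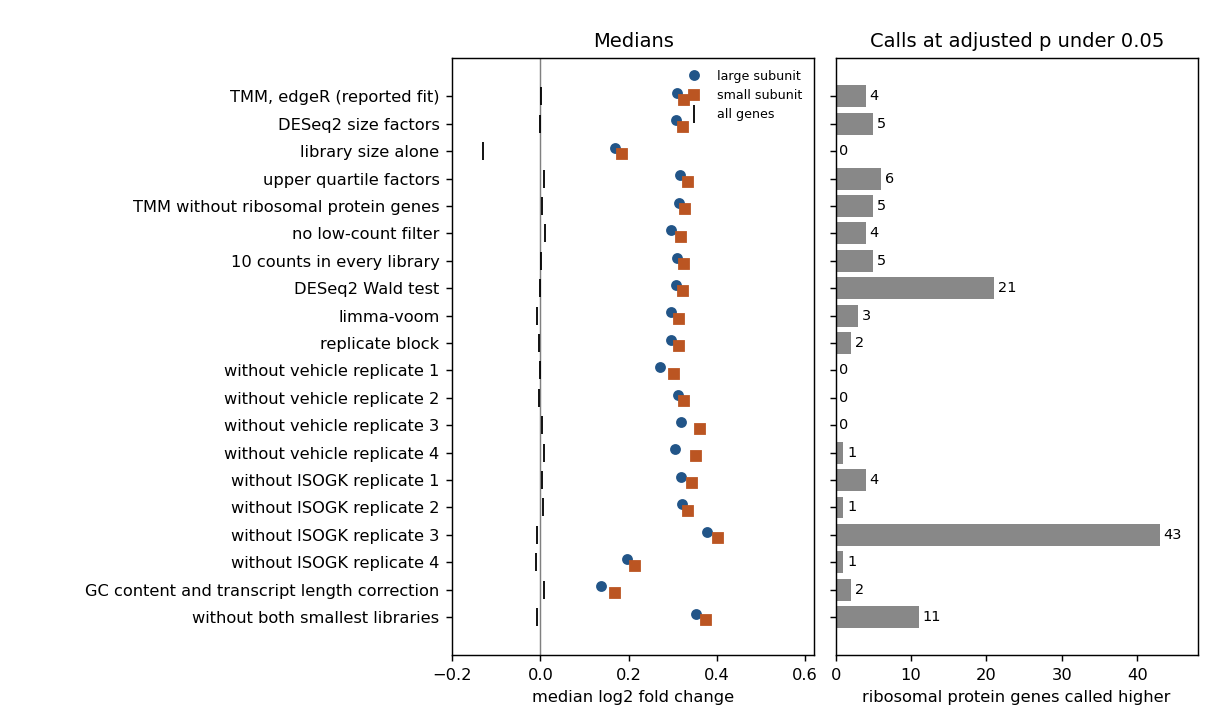
Left, the median log2 fold change of large (circles) and small (squares) subunit genes and of all genes (bars) in the reported fit and under each alternative. Right, the number of members called higher. The medians range from 0.14 to 0.40 and stay above that of all genes, while the calls range from 0 to 43.

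Ribosomal protein transcripts are short, with a median of 705 bases over the 78 genes for the shortest principal transcript of each in GENCODE. The median log2 fold change of other short transcripts also lay above 0 with ISOGK. The other genes were put into 5 classes by transcript length. The shortest class, 177 genes with a median length of 514 bases, had a median log2 fold change of 0.20, with 81.4% above 0. Of these 177 genes, 8 were called higher (4.52%, against 4.11% of all genes) and 1 lower, so the share called higher was close to the background. The median was 0.14 for 656 genes around 831 bases, 0.06 for 2824 genes around 1553 bases, -0.00840 for 4911 genes around 2842 bases and -0.07 for 3475 genes around 5346 bases. The trend was seen in ISOGK mice 1, 2 and 4, where 72, 69 and 78 of the 78 members lay above all vehicle-treated mice, against 29 in ISOGK mouse 3. For the shortest class the median deviation was 0.21, 0.12, 0.04 and 0.42 in ISOGK mice 1 to 4 and between -0.04 and 0.05 in the vehicle-treated mice. Weaker trends were seen among the vehicle-treated mice too. The shortest and longest classes had 0.05 and -0.03 in vehicle mouse 4 and, in reverse, -0.04 and 0.03 in vehicle mouse 1. By GC content the medians of other genes were -0.11 for 2608 genes up to 45%, -0.02, 0.03 and 0.05 for 3048 genes above 55%. Mice of the vehicle group differed in this as well. For genes up to 45% the median deviation was 0.12, 0.05, -0.05 and -0.12 in vehicle mice 1 to 4. In ISOGK mice 1 to 4 it was -0.07, -0.15, 0.01 and -0.18. Among the members themselves, the shorter and longer 39 had medians of 0.32 and 0.31, with all 4 calls (10.3%, against 4.11% of all genes) among the shorter and 0 among the longer, and the 39 of lower and 39 of higher GC content 0.31 and 0.32.

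When trends on length and GC content, estimated for each library on the other genes, were taken out (a correction chosen after the data had been seen), the median of the members was 0.15. That of all genes was 0.00859, and 74 of 78 members stood above 0. The 2 calls (2.56%, against 4.99% of all genes) were *Rps18* and *Rpl5*, the latter a carrier of ribosomal RNA that also binds Mdm2. The median of the shortest class of other genes became 0.02. The difference of the members was therefore reduced by this correction by more than 1.5 times without reaching the level of all genes. What made short transcripts differ between the mice was not tested.

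**Figure D5:**
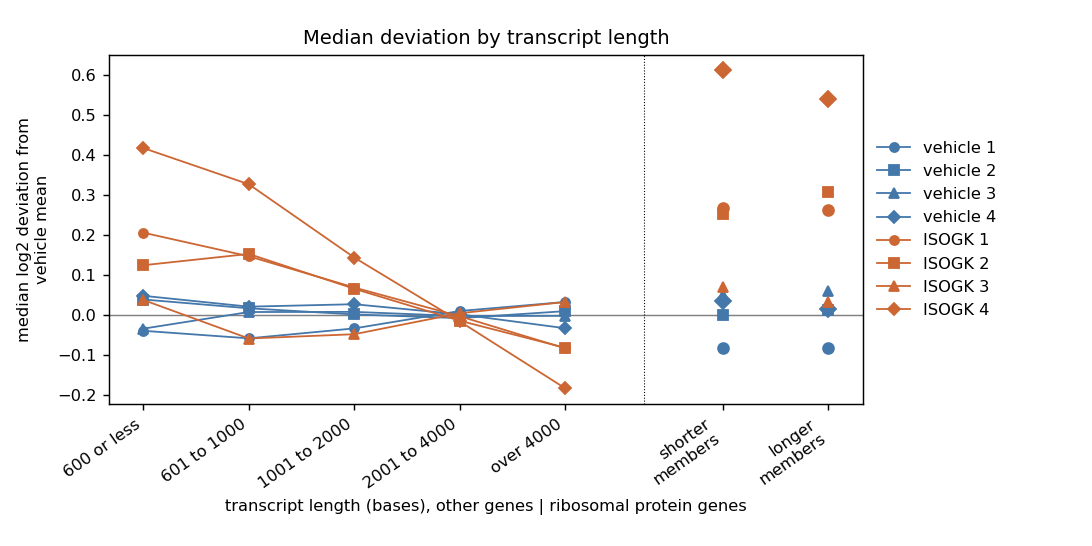
Median log2 deviation from the vehicle mean, less the median of all genes, for classes of other genes by transcript length (lines, one per mouse) and for the shorter and longer 39 ribosomal protein genes (points at right). In ISOGK mice 1, 2 and 4 short transcripts lie high and long ones low, most in mouse 4, which is also highest for the members.

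Genes that act around the ribosome were examined by lists, in the same test. Of 18 other genes listed as known TOP mRNAs, mostly translation factors, 12 had a promoter in the table and 8 of these showed a tract in the search above. A log2 fold change above 0 was found for 17 of the 18, with a median of 0.22, and 2 were called higher (11.1%, against 4.11% of all genes) and 0 lower. *Hnrnpa1*, an RNA-binding splicing regulator, had 31.1, 33.0, 28.8 and 29.3 CPM with vehicle and 42.6, 46.0, 49.9 and 40.8 CPM with ISOGK. Here ISOGK mouse 3 was the highest and mouse 4 the lowest of its group, unlike in the members. The log2 fold change was 0.55 (SE 0.09, adjusted p = 0.00516 in edgeR), and the call held in all 19 alternatives. *Naca*, which guards nascent chains at the tunnel exit, rose by 0.36 (adjusted p = 0.0393 in edgeR), but its call was lost in 10 of 19 alternatives, library size alone and the length and GC adjustment among them. *Eif3e* had a log2 fold change of 0.32 (adjusted p = 0.0625 in edgeR).

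A further list held 28 translation factors and related genes not counted as TOP genes, most of them initiation factors. Of these, 2 were called higher (7.14%, against 4.11% of all genes) and 1 lower (3.57%, against 3.44% of all genes). The list median was 0.12. *Eef2k*, the kinase that inhibits elongation factor 2, had 4.37, 6.53, 8.06 and 5.45 CPM with vehicle and 3.19, 3.27, 3.22 and 3.56 CPM with ISOGK, a log2 fold change of -0.89 (SE 0.19, adjusted p = 0.0174 in edgeR), and its call was lost in 2 of 19 alternatives, without vehicle mouse 2 or 3. *Eif1* and *Eif3m*, which act in start codon selection and in the scaffold of initiation, rose by 0.52 and 0.41, with calls lost in 9 and 8 of 19 alternatives, library size alone among them. Of 56 factors of ribosome biogenesis, 2 were called higher (3.57%, against 4.11% of all genes) and 0 lower, with a median of 0.04. These were *Noc2l*, at 22.7 ± 0.897 against 29.6 ± 1.97 CPM (mean ± SD of 4 mice), and *Ebna1bp2*, at 14.8 ± 0.583 against 19.7 ± 1.85 CPM, with calls lost in 7 and 9 of 19 alternatives, library size alone among them. *Sbds*, which releases a factor that keeps the subunits apart, had a log2 fold change of 0.28 (adjusted p = 0.0691 in edgeR).

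Of 18 genes of RNA polymerase I and its control, 2 were called higher (11.1%, against 4.11% of all genes) and 0 lower (median 0.15). *Myc*, a driver of ribosome production, had 3.41, 2.29, 3.08 and 3.98 CPM with vehicle and 8.53, 4.49, 7.01 and 5.76 CPM with ISOGK, without overlap, a log2 fold change of 1.02 (SE 0.22, adjusted p = 0.0183 in edgeR). The order of the ISOGK-treated mice in *Myc* differed from that in the members, with mouse 1 highest, and its call was lost in 3 of 19 alternatives. *Taf1c*, with 20 to 72 counts per library and overlapping groups, rose by 1.21 (adjusted p = 0.0428 in edgeR), and its call was lost in 9 of 19 alternatives, library size alone and limma-voom among them. *Polr1d* had a log2 fold change of 0.34 (adjusted p = 0.071 in edgeR). Of 23 genes of mTORC1 and of TOP translation control, 0 were called at an adjusted p under 0.05 in edgeR (median -0.08). The smallest adjusted p-values were those of *Mtor* (0.31, adjusted p = 0.0526 in edgeR), *Eif4ebp3* (0.57, adjusted p = 0.104 in edgeR) and *Eif4ebp2* (-0.25, adjusted p = 0.126 in edgeR). *Mtor* was called higher with upper quartile factors, in DESeq2's Wald test and with the length and GC adjustment. *Eif4ebp3* was called higher in DESeq2's Wald test and with a replicate block.

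A list of 16 genes covered ribosome quality control together with stress and *Trp53* signalling. Of these, the reported edgeR fit called 0 higher and 2 lower (12.5%, against 3.44% of all genes), with a median of -0.03. *Eif2ak4*, a sensor of uncharged tRNA and stalled ribosomes, fell from 8.95 ± 0.542 to 6.34 ± 0.474 CPM, and *Zfp598*, which marks collided ribosomes with ubiquitin, fell from 44.1 ± 4.55 to 34.1 ± 1.35 CPM. These calls were lost in 8 and 6 of 19 alternatives. *Cdkn1a*, a target of the *Trp53* product, had 47.0, 19.4, 10.2 and 23.7 CPM with vehicle and 39.6, 69.3, 81.1 and 129 CPM with ISOGK (log2 fold change 1.67, adjusted p = 0.115 in edgeR). DESeq2's Wald test and limma-voom called *Cdkn1a* higher. The ribosome of mitochondria is built from other proteins. Of its 78 genes, 3 were called higher (3.85%, against 4.11% of all genes) and 0 lower, 59 stood above 0 and the median was 0.14. *Mrpl20*, *Mrpl17* and *Mrps9* rose by 0.68, 0.52 and 0.41, and *Mrpl20* had its highest level in ISOGK mouse 4. Their calls were lost in 3, 7 and 9 of 19 alternatives, those of *Mrpl17* and *Mrps9* with library size alone too. Scaled by library size alone, the medians were 0.08 for the TOP list, -0.01 for the list of mostly initiation factors and -0.09 for biogenesis. They were 0.02 for RNA polymerase I, -0.22 for mTORC1, -0.16 for the list with quality control and 0.00568 for the mitochondrial ribosome.

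Markers of the cells that liver RNA can hold were summed per mouse on the CPM scale. The 10 hepatocyte markers, led by *Alb*, the albumin gene, had 0 calls in edgeR and summed to 165584, 166034, 159953 and 173980 CPM with vehicle and 152692, 168816, 178662 and 195501 CPM with ISOGK, highest in ISOGK mouse 4. Of 8 tested neutrophil markers, 2 were called higher (*S100a9* and *Ltf*; 25%, against 4.11% of all genes), with a median of 1.17. All 10 neutrophil markers summed to 12.7, 14.8, 19.2 and 11.7 CPM with vehicle and 43.6, 28.9, 30.4 and 13.8 CPM with ISOGK, so that ISOGK mouse 4, highest in ribosomal protein genes, was lowest of its group. The most abundant neutrophil marker, *Csf3r*, had 7.02 ± 1.17 and 7.08 ± 2.91 CPM. Lymphocyte markers, led by *Ptprc*, had 0 calls in the reported edgeR fit among 5 tested, with 3 above 0 and a median of 0.36. All 10 summed to 22.9, 21.1, 21.7 and 13.0 CPM with vehicle and 21.3, 24.96, 16.8 and 10.7 CPM with ISOGK, lowest in ISOGK mouse 4. The markers went both ways, with log2 fold changes of -0.57 for *Ptprc*, -0.24 for *Cd2*, 0.36 for *Cd3g*, 0.57 for *Ighm* and 0.69 for *Cd79a*. *Ptprc* was called lower with a replicate block.

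Of 10 macrophage markers, led by *Lyz2*, 1 was called lower (*Cd68*; 10%, against 3.44% of all genes) and 9 had a log2 fold change below 0, with sums of 1266, 1039.5, 1194 and 926 CPM with vehicle and 1025, 816, 981 and 785 CPM with ISOGK. Of 7 tested cholangiocyte markers, led by *Spp1*, 1 was called higher (*Sox9*; 14.3%, against 4.11% of all genes), and all 10 summed to 41.9, 42.8, 40.7 and 49.6 CPM with vehicle and 56.8, 86.4, 66.4 and 45.1 CPM with ISOGK. Endothelial markers (led by *Stab2*), stellate cell or fibroblast markers (*Dcn*), erythroid markers (*Alas2*) and exocrine pancreas markers (*Cela1*) had 0 calls in edgeR, of 10, 10, 6 and 2 tested.

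The endothelial sums were 500.4, 542, 575 and 565 CPM with vehicle and 535, 496, 551 and 535 CPM with ISOGK, and the stellate or fibroblast sums 323, 375, 441 and 381 against 377, 410.03, 459 and 246 CPM. The erythroid sums were 132, 105, 105 and 128 against 155, 154, 70.7 and 154 CPM, lowest in ISOGK mouse 3. The erythroid markers went both ways (4 of 6 above 0, median 0.60). *Alas2* had a log2 fold change of -0.32, and the globin genes *Hba-a1*, *Hba-a2*, *Hbb-bs* and *Hbb-bt* had 0.59, 0.60, 0.97 and 0.89. *Hbb-bs* had 18.1, 14.5, 17.4 and 16.6 CPM with vehicle and 38.6, 42.4, 10.4 and 38.4 CPM with ISOGK. The exocrine pancreas sums were 6.02, 4.63, 2.57 and 5.27 against 4.95, 6.54, 2.54 and 4.19 CPM. All 10 skeletal muscle markers, led by *Myh4*, had their highest count in vehicle mouse 4, the one library with *Rpl3l*, with a sum of 85.1 CPM against at most 0.629 CPM elsewhere. No marker with a row in the table had 0 counts in all libraries, and 3 listed markers (1 erythroid and 2 exocrine pancreas) were not analysed here. The part of cell composition in the levels of the ribosomal protein genes was not tested. Without vehicle mouse 4 the median of the members was 0.31, but 1 member instead of 4 was called (*Rpl36*; 1.28%, against 2.40% of all genes).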

How the data were processed

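RNA of 8 livers, 4 from vehicle-treated and 4 from ISOGK-treated mice, was sequenced by the authors, with 1 library per mouse. Per the authors' methods, reads were aligned with HISAT2 2.0.5, and raw counts per gene were computed with StringTie 1.3.3b. The deposited table holds raw counts per gene, 17457106 to 24461854 per library. Columns named DMSO were taken as the vehicle group. Counts were fitted in edgeR 4.0.16 (R 4.3.3), with filterByExpr (minimum count 10, total 15), TMM factors, robust quasi-likelihood tests and Benjamini-Hochberg adjustment over all 12307 genes tested, at 0.05. CPM used TMM-scaled library sizes, and log2 CPM a prior count of 2. The method was tested on simulated data, and the results of that test are not reported here.

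Alternatives were DESeq2 size factors, library size alone, upper quartile factors, TMM without the members, no filter, at least 10 counts in every library, the DESeq2 1.42.0 Wald test, limma 3.58.1 voom, a replicate block, leaving out each mouse, an adjustment for transcript length and GC content (loess span 0.3) and leaving out both smallest libraries. Symbols matched GENCODE M21 (GRCm38) for 16211 of 16540 genes.

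The members and gene lists were chosen with earlier results of these data known. Genes named are the called members, the 5 highest and 5 lowest fold changes, the 4 most abundant members of each subunit, fixed paralogs and ribosome components, up to 3 genes per pathway list with the smallest adjusted p, and the most abundant gene of each marker list. *Rpl37*, *Rpl5*, *Rps28*, *Rps14*, *Rpl23* and the called markers were named after their values were seen. Some of the genes that this rule names are not reported here. The list of snoRNA host genes was not analysed here.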

Additional observations from a re-analysis of the deposited data

Results flagged for a closer look

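In 7 of 157 groups of 4 mice, 1 mouse stood far from the other 3. For independent groups chance expects 7.85. The groups were not independent, since the members varied together and *Myh4* is part of the skeletal muscle sum. The number of such groups therefore cannot tell whether single flags arose by chance. In ISOGK mouse 4, *Rps27a* had 150 CPM, against 117 to 122 in the other ISOGK-treated mice. In vehicle mouse 1, *Rpl41* had 60.7 CPM, against 71.9 to 73.6, and *Fau* had 64 CPM, against 75.3 to 76.1. In vehicle mouse 4, *Rpl3l* had 0.402 CPM and *Myh4* 20.1 CPM, against 0 in the other vehicle-treated mice, and the skeletal muscle markers summed to 85.1 CPM, against 0 to 0.545. The erythroid markers summed to 70.7 CPM in ISOGK mouse 3, against 154 to 155 in the other ISOGK-treated mice.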

How the results depend on the processing

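The number of members called higher was 4 (5.13%, against 4.11% of all genes). It was 0 with library size alone (against 2.13%), 21 in the DESeq2 Wald test (26.9%, against 6.22%) and 2 with a replicate block (2.56%, against 3.34%), of which 1 (*Rpl36*) was among the 4 and the other was *Rpl37*. It was 2 with the correction for GC content and transcript length (2.56%, against 4.99%) and 11 without both smallest libraries (14.1%, against 3.30%), alternatives chosen after seeing the data. Leaving out each mouse gave 0 to 43 (0 to 55.1%, against 1.76% to 5.72% of all genes). The median of large subunit genes, 0.31, was 0.14 with the correction. It was 0.20 to 0.38 when each mouse was left out, and the large minus small median, -0.02, was -0.047 to -0.014. The difference in the ribosomal protein share of counts, 0.106 percentage points, was 0.269 without the 50 most abundant genes and 0.0646 to 0.150 when each mouse was left out.

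Some differences changed sign, none of them called, among them the log2 fold change of Alb and the log2 fold change of Csf3r. With library size alone *Rpl7l1* had -0.022, *Rpl22* -0.033, *Alb* -0.11 and *Csf3r* -0.11. With the correction *Rpl22* had -0.069 and *Rpl10-ps3* -0.00201. Without both smallest libraries *Alb* had -0.011, *Csf3r* -0.15 and *Dcn* -0.037. *Csf3r* had -0.076 in limma-voom and -0.055 with a replicate block. Leaving out each mouse gave -0.019 to 0.18 for *Rpl7l1*, -0.041 to 0.10 for *Alb* and -0.21 to 0.19 for *Csf3r*. The cause was not tested.

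Replicate numbers did not pair the mice: the correlations of vehicle and ISOGK mice of the same number were 0.01, -0.01, 0.08 and 0.08. With the block, 411 genes were called higher and 416 lower. The median standard error of a member was 0.12 (log2).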
